A study of Mus musculus with 18 samples.

Results

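The genes described here are those of the cytosolic ribosomal proteins, the proteins that build the large and small subunits of the ribosome outside the mitochondrion. They were taken by name: a symbol of Rpl or Rps followed by a number and at most one of the letters a, l or x, or one of Rplp0, Rplp1, Rplp2 and Rpsa. The rule found 81 of the 34714 genes in the table, 47 of the large subunit, 31 of the small subunit and 3 of the P stalk. FPKM, the unit of the values, relates sequenced fragments to the length of the transcript and the size of the library. A filter on low values, which asked for 3 or more libraries with an FPKM of 1 or higher, kept 78 of them and 11937 genes in all. The 3 members that did not pass were Rpl10l and Rpl39l, copies of Rpl10 and Rpl39 known from testis, and Rpl32l. Rpl10l was listed at 0 in all 18 libraries, Rpl32l reached at most 0.159 FPKM and Rpl39l at most 0.348 FPKM.

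The samples were hearts of mice of C57 background. Some were wild type, and in the others the gene Kcp (kielin/chordin-like protein, a secreted modulator of BMP and TGF-beta signals) was knocked out. Mice of each genotype underwent sham surgery or were banded by transverse aortic constriction (TAC), which loads the left ventricle with pressure, to ask how loss of Kcp alters the remodelling of the loaded heart. Wild type was represented by 4 sham and 5 TAC libraries, and the knockout by 4 sham and 5 TAC libraries. The labels give no age, sex, time after surgery or knockout design. Nor do they say whether libraries of a group are separate animals, and the spread behind the p-values may therefore be technical in part. Knockout sham replicate 2 carries a library name that joins those of replicates 3 and 4. It was left out of the fits and of every mean, so n is 3 for knockout sham there. Where libraries are listed one by one, its value is printed with the words "left out". Ranges over all libraries or all knockout libraries, and ranges of summed cell type markers, include it. Knockout TAC replicate 4 also carries a joined library name. Neither part of it names another library of the series, and it was kept in the fits.

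Every ribosome holds one copy of nearly all of these proteins, and cells keep their output matched. Most cells use Rpl3, a core protein of the large subunit that reaches toward the site of peptide bond formation. Heart and skeletal muscle also make Rpl3l, a close copy of Rpl3 that replaces it in part of the ribosomes of mature striated muscle. Cardiac growth under load is known to call for more ribosomes, and ribosomal protein mRNAs are known for control of their translation through a pyrimidine tract at their first bases.

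Summed FPKM ran from 390453 to 432264 over the 18 libraries, and 11027 to 11377 genes reached 1 FPKM. The sums of the 3 knockout sham libraries in the fits, 414041 to 432264, lay above those of the 4 wild-type sham libraries, 398920 to 413577, and that of the left-out library, 398304, lay below both. Sequencing depth is unknown because the table holds no counts. Kcp ranged from 0.794 to 1.48 FPKM in the 9 wild-type libraries and from 0.494 to 0.952 in the 9 knockout libraries, so it was low throughout, was not absent from the knockout and overlapped between genotypes. Wild-type TAC replicate 5 stood apart from its genotype for 50 of the 11937 genes tested (0.419%), Rps10 among them (values given with that gene). At these genes it grouped with the knockout, and the rest of the wild type lay apart from both. A full split by genotype label was about as common, at 46 genes (0.385%). Replicate 5 was kept as wild type in the fits. Its Kcp level was 1.04 FPKM, above every knockout library. All 10 cardiomyocyte markers were detected in all groups.

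Rpl3l (chromosome 17, 24727826 to 24736143 on GRCm38.p6) and Rpl3 (chromosome 15, 80077781 to 80083406) are the pair on which the results turn. Their coding sequences are 74.4% identical over 1189 aligned bases, 97.1% of the 1221 coding bases of Rpl3l. Promoter sequences from RefSeq (GRCm38.p6) were found for 61 of the 81 members. They are shown for Rpl3l, for Rps2, a common small subunit gene that lies 5898 bases away from it with Ndufb10 between them, and for Rps10, the member that differed most between genotypes. Each runs from 200 bases before a start of transcription to 15 bases after it, 5′ to 3′ on the gene's strand. The start is that of the first entry for the gene in the RefSeq promoter table, and a gene may have others. For Rps2 it is base 24720063, inside the listed span of the gene, which begins at 24718121. Capitals mark CANNTG, the E-box, in Rpl3l (chr17:24727626-24727840, plus strand), and CGGAAG or CTTTCC, on either strand, in Rps2 (chr17:24719863-24720077, plus strand) and Rps10 (chr17:27635230-27635444, minus strand).
Rpl3l: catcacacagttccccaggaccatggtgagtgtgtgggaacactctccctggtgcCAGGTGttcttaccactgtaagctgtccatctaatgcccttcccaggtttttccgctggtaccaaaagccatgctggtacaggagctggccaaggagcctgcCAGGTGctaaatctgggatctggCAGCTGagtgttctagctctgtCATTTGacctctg
Rps2: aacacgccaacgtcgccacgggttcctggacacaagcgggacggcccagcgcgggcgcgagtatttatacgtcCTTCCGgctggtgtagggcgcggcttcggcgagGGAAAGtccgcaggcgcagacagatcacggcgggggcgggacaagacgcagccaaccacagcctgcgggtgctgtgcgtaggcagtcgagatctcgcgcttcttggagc
Rps10: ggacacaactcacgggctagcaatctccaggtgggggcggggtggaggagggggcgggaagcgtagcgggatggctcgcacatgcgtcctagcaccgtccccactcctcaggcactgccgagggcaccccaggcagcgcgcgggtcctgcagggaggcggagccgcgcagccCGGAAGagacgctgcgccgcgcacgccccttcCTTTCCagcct
CGGAAG holds the core that ETS family factors bind. Over windows from 250 bases before the start to 50 after it, both strands searched, CGGAAG was in 41 of the 61 members (67.2%) against 17.2% of all 27024 promoters of that length. The pyrimidine stretch CTTTCC was in 29 members (47.5%) against 26.3%. The E-box CANNTG was in 32 (52.5%) against 72.2%, CATTCC, the element bound by TEAD factors, in 5 (8.20%) against 14.6%, and TATAAA in 6 (9.84%) against 14.2%. On their reverse strands CTTTCC and CATTCC share the letters GGAA with CGGAAG. The window of Rpl3l held 4 matches to CANNTG and none to the other motifs. A match describes the letters only.

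In sham hearts of both genotypes Rpl3l was the more abundant of the pair, per kilobase. Rpl3l stood at 180.2, 196, 166 and 189.9 FPKM in the 4 wild-type sham libraries, with a mean of 183 ± 13.1 (SD, n = 4). Rpl3 stood at 64.8, 65.6, 80.9 and 82.3 FPKM in the same libraries, with a mean of 73.4 ± 9.50 (SD, n = 4). Rpl3l thus made up 67.2% to 74.9% of the summed FPKM of the pair. In knockout sham Rpl3l was at 202, 198 and 201 FPKM (192 left out) and Rpl3 at 77.5, 77.6 and 77.9 FPKM (75.1 left out). The wild-type and knockout sham libraries overlapped for Rpl3, and for Rpl3l the 3 knockout values lay just above the highest wild-type value.

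After TAC in wild type Rpl3 rose and Rpl3l fell. Rpl3 was at 118, 103, 109.7, 96.5 and 95.05 FPKM in the 5 wild-type TAC libraries, all above every sham library. Rpl3l was at 116, 135, 120.2, 137 and 145 FPKM, all below every sham library. On the scale of log2(FPKM + 1), the change of Rpl3 was 0.51 ± 0.09 (SE; 95% interval 0.32 to 0.70; limma, Benjamini-Hochberg adjusted p = 0.00074). That of Rpl3l was -0.48 ± 0.09 (95% interval -0.68 to -0.29; limma, Benjamini-Hochberg adjusted p = 0.0014). Among the 78 members tested these were the largest and the next largest changes. Of all other members Rps27l moved furthest, by 0.27.

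After TAC in the knockout both genes moved in the same directions and further. Rpl3 reached 180.2, 132, 160.2, 152 and 150.1 FPKM, with a mean of 155 ± 17.6 (SD, n = 5) against 77.7 ± 0.178 (SD, n = 3) in knockout sham. Rpl3l dropped to 68.7, 90.9, 65.4, 82.9 and 91.7 FPKM, with a mean of 79.9 ± 12.3 (SD, n = 5) against 200.4 ± 2.01 (SD, n = 3). No library of either gene overlapped with the sham group, and in all 5 knockout TAC libraries Rpl3 exceeded Rpl3l, which held in 1 of the 5 wild-type TAC libraries and in none of the sham libraries. The log2 change of Rpl3 was 0.98 ± 0.10 (95% interval 0.77 to 1.18; limma, Benjamini-Hochberg adjusted p = 9.1e-07). The log2 change of Rpl3l was -1.33 ± 0.10 (95% interval -1.54 to -1.11; limma, Benjamini-Hochberg adjusted p = 1.1e-07). Of all other members Rps2 moved furthest here, by 0.35.

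Set directly against each other after TAC, the genotypes differed for both genes, with no overlap between the 5 knockout and the 5 wild-type libraries. Rpl3 was higher in the knockout, by 0.56 ± 0.08 on the log2 scale (limma, Benjamini-Hochberg adjusted p = 0.00078). Rpl3l was lower, by 0.71 on that scale (log2 difference -0.71 ± 0.09; limma, Benjamini-Hochberg adjusted p = 0.00015). Wild-type TAC replicate 5, at 95.05 FPKM of Rpl3 and 145 FPKM of Rpl3l, lay at the wild-type end for both. In sham neither gene passed the threshold: the log2 difference was 0.09 (95% interval -0.13 to 0.30) for Rpl3 and 0.13 (95% interval -0.09 to 0.36) for Rpl3l. The difference between the TAC responses of the genotypes, tested as an interaction, was -0.84 ± 0.14 for Rpl3l (limma, Benjamini-Hochberg adjusted p = 0.020) and 0.47 ± 0.13 for Rpl3 (limma, Benjamini-Hochberg adjusted p = 0.080). Rpl3l was the only member of 78 called in that test, which called 0.93% of all genes (0.377% above 0 and 0.553% below). Without knockout sham replicate 1 the value was the same, -0.84, but its limma, Benjamini-Hochberg adjusted p was 0.054.

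**Figure D1:**
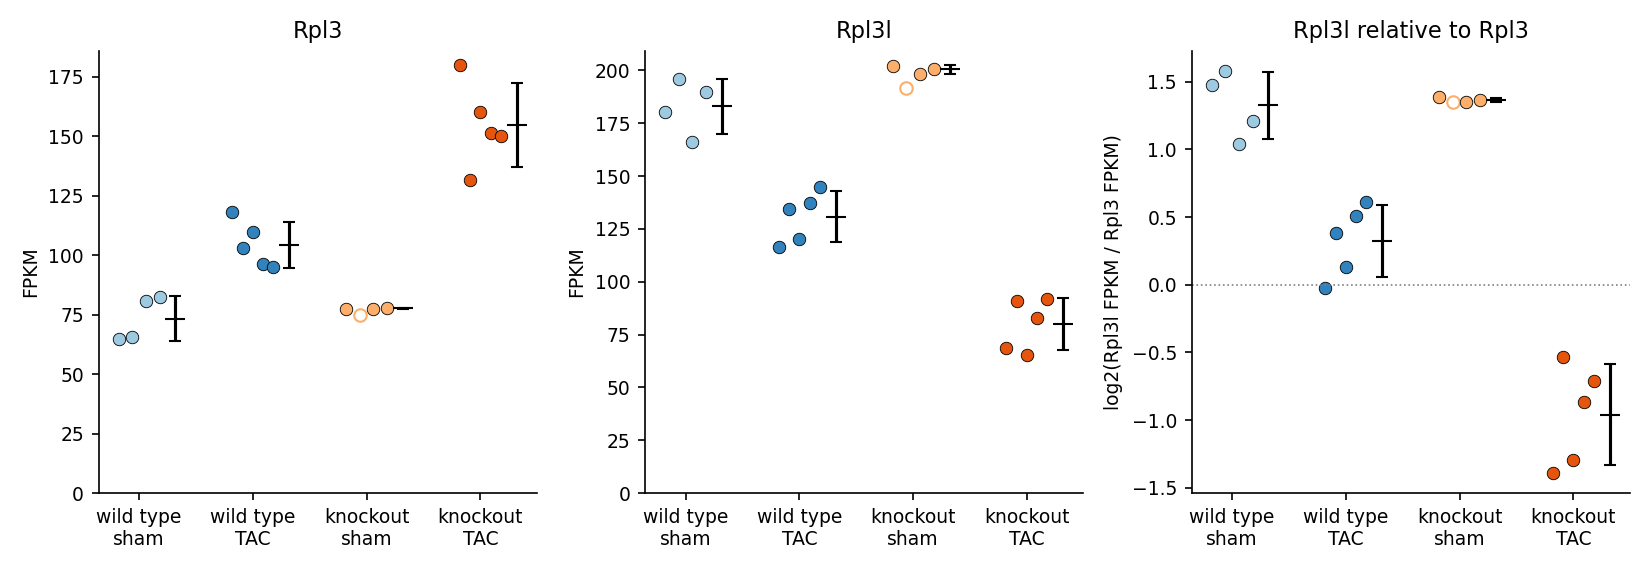
FPKM of Rpl3 (left) and Rpl3l (middle) and the log2 ratio of Rpl3l to Rpl3 (right) in each of the 18 libraries by group. Filled points are libraries in the fits, the open point is knockout sham replicate 2, which was left out, and the bar beside each group is the mean ± SD. Rpl3 is highest and Rpl3l lowest in the 5 knockout TAC libraries, where the log2 ratio is below 0 throughout.

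The ratio of the pair inside a library does not depend on how that library was scaled. Rpl3l divided by Rpl3 ran from 2.05 to 2.99 in wild-type sham, 0.984 to 1.52 in wild-type TAC, 2.55 to 2.61 in knockout sham and 0.381 to 0.691 in knockout TAC. TAC changed the mean log2 ratio by -1.002 in wild type (exact 2-sided permutation p = 0.0079, adjusted over 4 comparisons 0.016, n = 4 and 5). It changed it by -2.33 in the knockout (exact permutation p = 0.018, adjusted 0.024, n = 3 and 5). Knockout and wild type differed by -1.28 after TAC (exact permutation p = 0.0079, adjusted 0.016, n = 5 and 5) and by 0.04 in sham (exact permutation p = 0.77, n = 3 and 4). The p-values of the 3 comparisons that passed are the smallest that these group sizes allow. The summed FPKM of the pair moved less than either gene: 245 to 272 in wild-type sham, 229.8 to 239.9 in wild-type TAC, 276 to 279.8 in knockout sham and 223 to 249 in knockout TAC.

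Cardiomyocytes, which express Rpl3l, are one cell type among several in a piece of heart, and in bulk RNA fewer cells of a type and less RNA per cell cannot be told apart. The summed FPKM of 10 cardiomyocyte markers, all detected, was 59208 to 61272 in wild-type sham, 53527 to 57982 in wild-type TAC, 58626 to 64055 in knockout sham (4 libraries) and 47206 to 53238 in knockout TAC. TAC called 1 of the 10 higher and 6 lower in wild type (70%, against 21.9% of all genes). In the knockout it called 9 lower and 0 higher (90%, against 38.8%). Between genotypes after TAC, 4 were called lower in the knockout and 0 higher (40%, against 11.3%). Most of these markers thus fell with TAC as Rpl3l did. In both TAC comparisons none of the 10 fell as far as Rpl3l: the lowest log2 change was -0.43 (Pln, phospholamban) in wild type and -0.84 (Tnni3, cardiac troponin I) in the knockout. Per 1000 FPKM of these markers, Rpl3l stood at 2.79 to 3.24 FPKM in wild-type sham and 2.08 to 2.50 in wild-type TAC. It stood at 3.10 to 3.36 in knockout sham (3 libraries) and 1.29 to 1.76 in knockout TAC. The summed levels of 10 fibroblast markers (672 to 887, 789.7 to 1212, 706 to 799 and 879 to 1295 FPKM in the same order of groups) ran higher after TAC, with ranges that overlapped in wild type. TAC called 4 of them higher and 1 lower in wild type (50%, against 21.9% of all genes). In the knockout it called 7 higher (70%, against 38.8%). Of 12 leukocyte markers (192 to 317, 243 to 378, 212 to 244 and 309 to 423 FPKM) 11 were tested. TAC called 1 higher in wild type (9.09%, against 21.9% of all genes) and 6 in the knockout (54.5%, against 38.8%). The summed level of 10 smooth muscle and pericyte markers was 943 to 963, 1092 to 1403, 856 to 981 and 1246 to 1634 FPKM. Its members did not move together, with a median log2 change of -0.06 in wild type and 0.10 in the knockout. TAC called 1 higher and 1 lower in each genotype (20%, against 21.9% and 38.8% of all genes). The one that rose was Des, desmin, which cardiomyocytes also express (0.54 and 0.88), and the one that fell was Abcc9, a channel subunit (-0.63 and -0.80). The summed level of 10 endothelial markers was 299 to 319.7, 307 to 360.1, 282 to 312 and 305 to 378 FPKM. TAC called 1 of them higher in wild type (10%, against 21.9% of all genes) and 3 in the knockout (30%, against 38.8%). Skeletal muscle is the other site of Rpl3l. The summed level of its 10 markers was 1655 to 1892, 3536 to 7979, 1878 to 2282 and 3340 to 6999 FPKM, and 3 of them passed the filter on low values. Of these Acta1, skeletal alpha-actin, which stressed heart muscle is known to express, rose by 4.51 in wild type and 4.90 in the knockout. Tnni2, fast skeletal troponin I, fell by 0.54 and by 0.99, and Ckm, muscle creatine kinase, changed by -0.05 and -0.46. Myh4 and Myf6 were at 0 in all 18. The part of cell makeup in the Rpl3 and Rpl3l changes was not tested.

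With TAC the other members moved by at most 0.35 on the log2 scale. Their mean FPKM over the 17 libraries ran from 19.9 for Rps15a to 661 for Rps2, with a median of 237. Replicates of 1 group differed with a median SD of 0.09 on the log2 scale, from 0.05 to 0.26, the last for Rps10. The half-width of the 95% interval of a change had a median of 0.13 in wild type and 0.14 in the knockout, so most changes smaller than that could not be resolved. The 81 genes lie on 19 chromosomes. Many have near-identical copies elsewhere in the genome: of the 80 with a coding sequence in GENCODE, 68 have at least 1 other gene at 95% identity or more over at least 90% of it, and 39 have at least 5. Rpl3l has none and Rpl3 has 7. No source used here says how the authors' counting split reads between such copies, and the values of those 68 genes, Rpl3 included, are uncertain in that respect.

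The summed FPKM of the 81 members made up 4.25% to 4.58% of all FPKM in wild-type sham and 4.36% to 4.67% in wild-type TAC. It made up 4.38% to 4.55% in knockout sham and 4.56% to 4.94% in knockout TAC. The knockout TAC libraries were the highest, although replicate 2 of that group lay inside the wild-type TAC range.

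**Figure D2:**
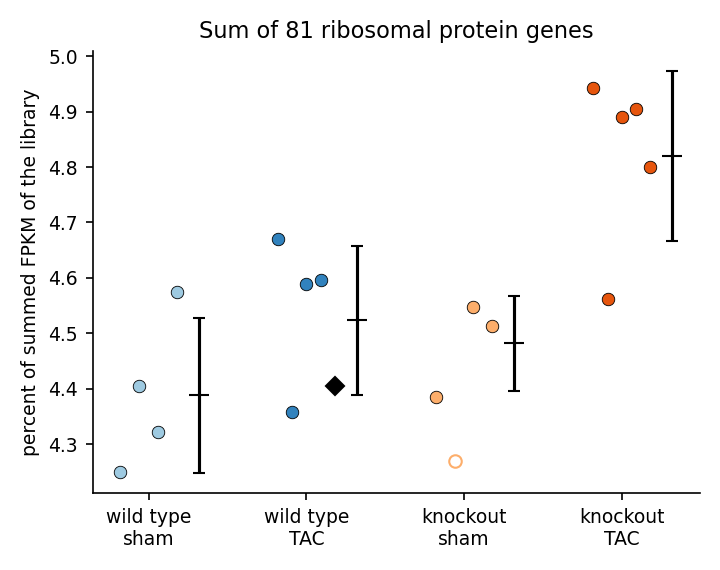
Summed FPKM of the 81 members as a percent of the summed FPKM of each library, by group. The axis does not start at 0; filled circles are libraries in the fits, the diamond is wild-type TAC replicate 5, the open circle is knockout sham replicate 2, left out, and bars are mean ± SD. Most knockout TAC libraries lie above those of the other groups, and all libraries fall between 4.25% and 4.94%.

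TAC in wild type called 5 members higher and 1 lower of 78, that is 7.69%, against 21.9% of all 11937 genes tested at a Benjamini-Hochberg adjusted p under 0.05. The median log2 change of the 78 was 0.05, against -0.01 over all genes. Of the 78, 57 were above 0 (73.1%, against 48.2% of all genes). By direction, 10.7% of all genes were higher and 11.2% lower. The TAC and sham libraries did not overlap in 2 members that were higher and 1 that was lower, against 21.7% of all genes (10.5% higher and 11.1% lower). The members called higher were Rpl3 and the 4 named next. Rps27l, a copy of Rps27 known as a target of p53, was at 58.4, 58.1, 53.5 and 59.7 FPKM in sham and 67.5, 73.8, 77.8, 71.1 and 59.1 FPKM after TAC. Its lowest TAC library, replicate 5, fell among the sham values and the other 4 lay above them (log2 change 0.27 ± 0.07; limma, Benjamini-Hochberg adjusted p = 0.0071). Rps12, a small subunit protein, changed by 0.21 ± 0.07 (adjusted p = 0.028), and Rps26, which lies along the exit path of the mRNA, by 0.21 ± 0.07 (adjusted p = 0.040). Rpl27a, of the large subunit, changed by 0.19 ± 0.06 (adjusted p = 0.026). Apart from Rpl3 and Rps27l each of these calls was lost when 1 library was left out (adjusted p up to 0.087 for Rpl27a, 0.087 for Rps12 and 0.14 for Rps26).

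TAC in the knockout called 13 members higher and 3 lower, that is 20.5%, against 38.8% of all genes. The median log2 change was 0.06, against 0.01 over all genes. In both genotypes the share of members called lay under that of all genes. By direction, 21.1% of all genes were higher and 17.7% lower. The groups did not overlap in 14 members that were higher and 3 that were lower, against 35.8% of all genes (19.8% higher and 16% lower). Those higher were 8 of the large subunit (Rpl3, Rpl4, Rpl10, Rpl10a, Rpl12, Rpl22, Rpl24 and Rpl36a) and 5 of the small subunit, among them Rps12, Rps16 and Rps26. Apart from Rpl3, their changes were between 0.15 and 0.25. Rps16 showed the largest of these, 0.25 ± 0.07 (limma, Benjamini-Hochberg adjusted p = 0.0055), from 151, 177 and 167 FPKM in sham (167 left out) to 211, 193, 206, 184 and 189. Rpl4, which lines the exit tunnel of the ribosome, went from 305, 309 and 334 FPKM in sham (301 left out) to 386, 338, 359, 365 and 379 (0.21 ± 0.06; limma, Benjamini-Hochberg adjusted p = 0.0067). Neither gene overlapped between the groups. Rpl3, Rps12 and Rps26 were called higher by TAC in both genotypes. With each library left out in turn, the knockout calls of Rpl3 and Rpl4 held. Those of Rps12, Rps16 and Rps26 were each lost in 1 or more of these fits (limma, Benjamini-Hochberg adjusted p up to 0.080, 0.0504 and 0.13).

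Besides Rpl3l, Rps2 and Rplp2 fell with TAC in the knockout. Rps2, which sits where mRNA enters the small subunit, was at 795, 848 and 874 FPKM in sham (765 left out) and 540.2, 698, 676, 626 and 771 FPKM after TAC. All TAC libraries lay below the sham libraries (log2 change -0.35 ± 0.12; limma, Benjamini-Hochberg adjusted p = 0.025). The call was lost without any of 4 single libraries (adjusted p up to 0.086). In wild type Rps2 did not pass, with a log2 change of -0.06. In sham Rps2 was higher in the knockout by 0.46, short of the threshold (limma, Benjamini-Hochberg adjusted p = 0.082). The knockout sham libraries in the fit all lay above the wild-type sham libraries. After TAC the genotypes differed by 0.17 (adjusted p = 0.32). The same knockout sham libraries enter the fall with TAC and the sham difference. Rplp2, one of the acidic proteins of the stalk that brings elongation factors to the ribosome, was at 233, 263 and 273 FPKM in sham (205 left out) and 213, 214, 214, 204 and 230.3 FPKM after TAC. Its change was -0.25 ± 0.06 (limma, Benjamini-Hochberg adjusted p = 0.0051), but with the left-out library included, which has the lowest sham value, the adjusted p was 0.062. In sham Rplp2 was higher in the knockout by 0.19 (limma, Benjamini-Hochberg adjusted p = 0.21), and after TAC the difference was -0.10 (adjusted p = 0.30). With TAC in the knockout Rplp1, the partner of Rplp2 in the stalk, changed by 0.15 (adjusted p = 0.053) and Rplp0, their anchor, by -0.00 (adjusted p = 0.96). The count of 16 was sensitive to single libraries, from 5 without knockout sham replicate 1 to 20. It was 10 after median-ratio scaling, with 7 higher and 3 lower. Without knockout TAC replicate 4, the library with a joined name, it was 15, Rps2 and Rps26 no longer passed, and Rpl3 and Rpl3l stood at 0.98 and -1.35.

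**Figure D3:**
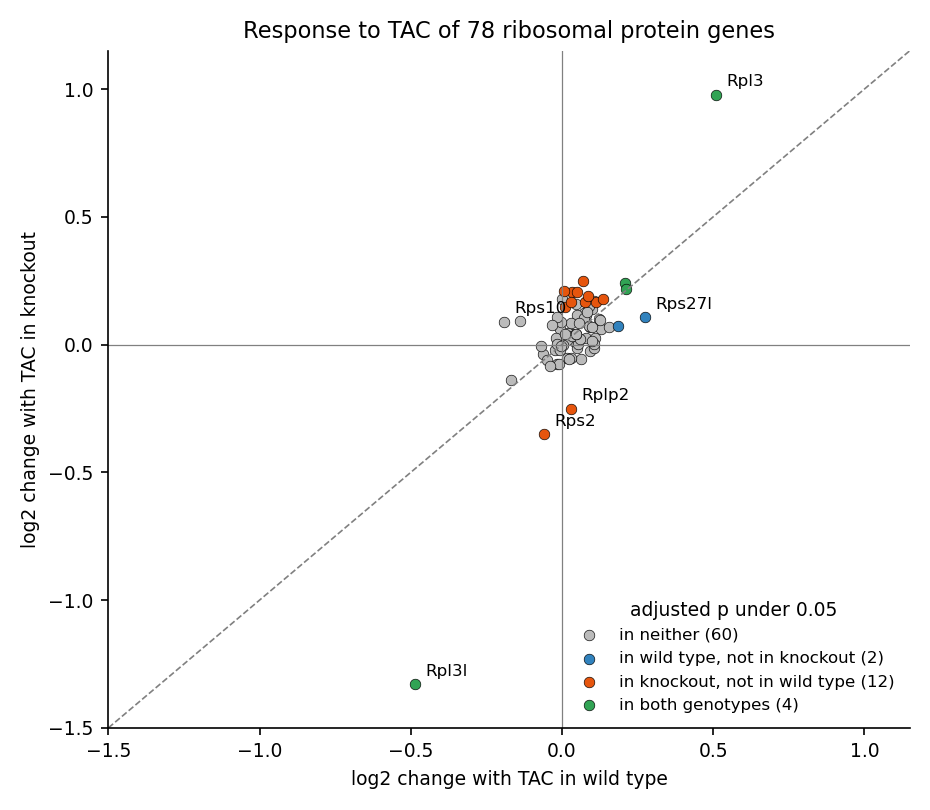
Log2 change with TAC in wild type (horizontal) against the log2 change in the knockout (vertical) for the 78 members tested, 1 point a gene, coloured by the comparisons in which the adjusted p was under 0.05. Rpl3 (0.51 and 0.98) and Rpl3l (-0.48 and -1.33) lie away from the other 76, which stay within 0.35 of 0 on both axes; the dashed line marks equal changes.

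Between genotypes in sham, 2 members were higher in the knockout and 1 lower, that is 3.85% of 78, against 1.26% of all genes. By direction, 0.645% of all genes were higher and 0.62% lower. The groups did not overlap in 17 members higher and 2 lower in the knockout, against 15.4% of all genes (7.27% higher and 8.15% lower). The median difference was 0.08, against -0.01 over all genes, and 0.09 with median-ratio scaling. The summed FPKM of the knockout sham libraries lay above that of the wild-type sham libraries as well, with means of 424874 and 405849. The part of this in the differences between members was not tested. Rpl15, a large subunit protein, was at 78.9, 88.8, 85.5 and 92.1 FPKM in wild type and 99.7, 114 and 118 FPKM in the knockout (90.6 left out). The 3 knockout libraries in the fit lay above the wild-type libraries (0.35 ± 0.06; limma, Benjamini-Hochberg adjusted p = 0.010). Rps23, which forms part of the decoding site, was at 245, 247, 253 and 268 FPKM in wild type and 294, 298 and 289 FPKM in the knockout (252 left out), a difference of 0.21 ± 0.05 (limma, Benjamini-Hochberg adjusted p = 0.036). The left-out library lay inside the wild-type range for both, and with it the adjusted p of Rps23 was 0.14. The member called lower was Rps10. Without knockout sham replicate 3 none of the 3 calls remained and no other member was called. Median-ratio scaling gave 5 higher and 1 lower.

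After TAC 19 members were higher in the knockout and 2 lower, that is 26.9%, against 11.3% of all genes. By direction, 6.53% of all genes were higher and 4.78% lower. The median difference over the 78 members was 0.10, against 0.02 over all genes. Of the 78, 63 were above 0 (80.8%, against 54.8% of all genes). The groups did not overlap in 12 members that were higher and 1, Rpl3l, that was lower, against 6.69% of all genes (3.83% higher and 2.87% lower). The 2 called lower were Rpl3l and Rps10. Of the 19 higher, 12 belong to the large subunit, Rplp1 to the stalk and 6 to the small subunit. Apart from Rpl3 the differences were between 0.14 and 0.32. This comparison shares its libraries with the comparisons of TAC within each genotype.

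Rpl17, a large subunit protein at the exit tunnel, followed Rpl3 in size. It was at 263, 212, 207, 228 and 253 FPKM in wild-type TAC and 309, 278, 289, 273 and 301 FPKM in knockout TAC, with no overlap (0.32 ± 0.06; limma, Benjamini-Hochberg adjusted p = 0.0049). Rpl28 was at 330.2, 339, 345, 313 and 357 FPKM in wild-type TAC and 392, 392, 404, 379 and 409 FPKM in knockout TAC, again with no overlap (0.23 ± 0.05; limma, Benjamini-Hochberg adjusted p = 0.0053). In sham, Rpl28 had a mean of 333 ± 18.4 (SD, n = 4) in wild type and 390.4 ± 18.5 (SD, n = 3) in the knockout, and Rpl17 of 219 ± 10.5 (SD, n = 4) and 268 ± 13.4 (SD, n = 3). The sham difference of Rpl28, 0.23, missed the threshold (limma, Benjamini-Hochberg adjusted p = 0.055), and that of Rpl17 was 0.29 (adjusted p = 0.082). Rpl15 (0.24 ± 0.05, adjusted p = 0.010) and Rps23 (0.17 ± 0.04, adjusted p = 0.012), the members higher in knockout sham, were also among the 19. Rpl36a differed by 0.29 and Rpl32 by 0.25, with adjusted p of 0.0096 and 0.0061. The interaction called none of these, and the median interaction of the 78 members was 0.01. The count of 21 fell to 12 without wild-type TAC replicate 2 or without knockout TAC replicate 1. Without knockout TAC replicate 4 it was 15, with Rpl3 at 0.56 and Rpl3l at -0.73.

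**Figure D4:**
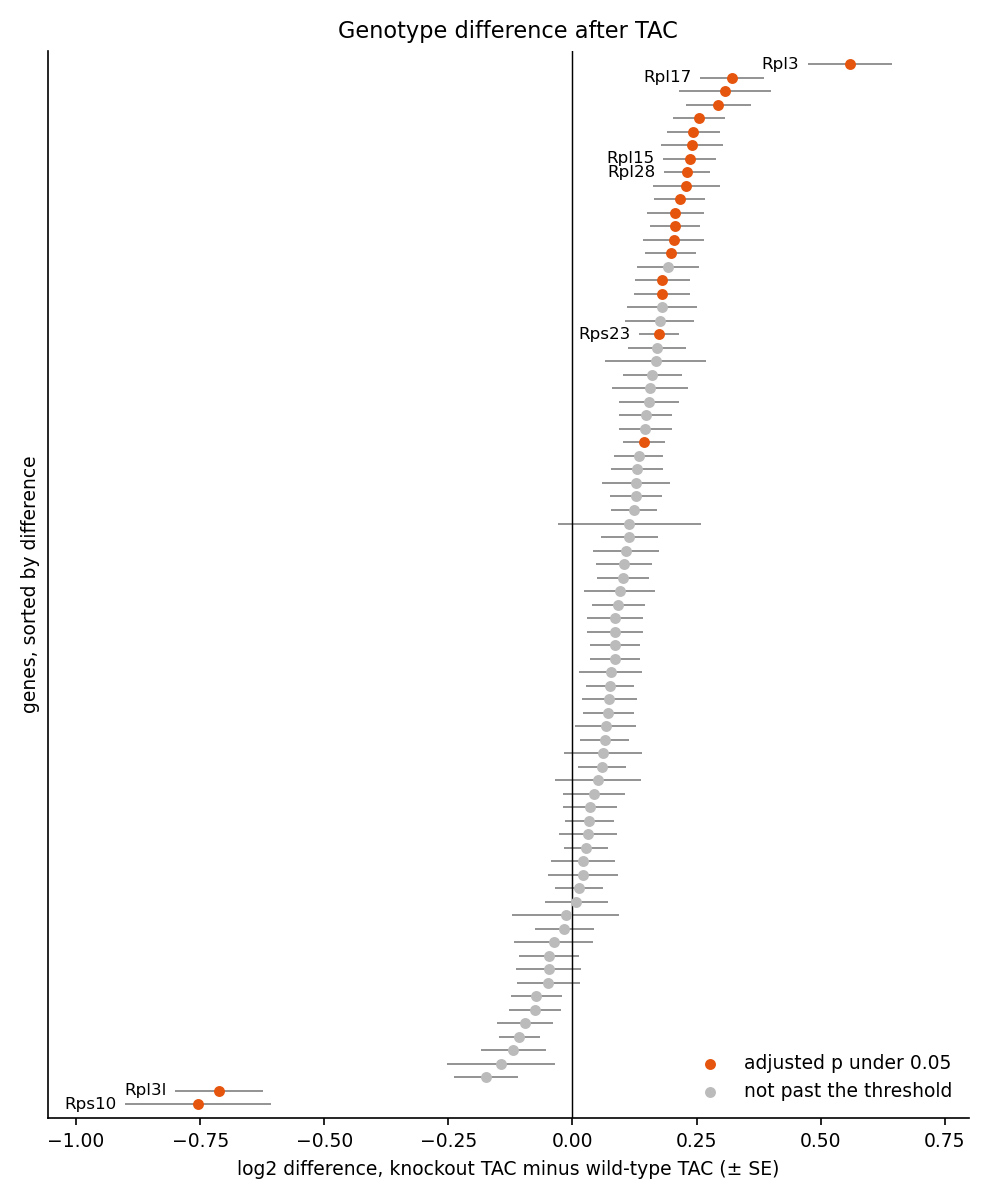
Log2 difference between knockout TAC and wild-type TAC for each of the 78 members, sorted, 1 point a gene, with the SE as a bar and 7 of the genes named. Orange points passed the threshold of 0.05 on the adjusted p, 19 above 0 and 2 below; Rpl3 is at 0.56, Rpl3l at -0.71 and Rps10 at -0.75.

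Rps10, a protein of the head of the small subunit, was the member that differed most between genotypes, and the one in which wild-type TAC replicate 5 sat with the knockout. It was at 47.0, 53.7, 58.9 and 66.9 FPKM in wild-type sham and at 59.0, 50.4, 56.0, 56.7 and 30.1 FPKM in wild-type TAC, the last being replicate 5. In the knockout it was at 26.2, 24.2 and 30.7 FPKM in sham (27.3 left out) and 31.6, 29.6, 27.7, 25.7 and 29.1 FPKM after TAC. The 8 other wild-type libraries all lay above the 9 knockout libraries, and replicate 5 lay inside the knockout range. The genotype difference was -1.04 ± 0.18 in sham (limma, Benjamini-Hochberg adjusted p = 0.0076) and -0.75 ± 0.15 after TAC (limma, Benjamini-Hochberg adjusted p = 0.0052). Without replicate 5 the difference after TAC was -0.93 ± 0.09. Without knockout sham replicate 3 the sham difference was -0.96 (adjusted p = 0.053). TAC did not move Rps10 past the threshold in wild type (-0.19) or in the knockout (0.09).

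Rps27rt, a retrogene copy of Rps27 whose name falls outside the rule, had the same split. It was at 20.2 to 37.1 FPKM in the 8 other wild-type libraries, at 6.21 in replicate 5 and at 4.67 to 8.51 in the 9 knockout libraries. It is one of the near-identical copies of Rps27 by the measure given above, and reads of the pair may be divided between them. The Rps27 values themselves did not pass the threshold in any of the 5 comparisons.

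Over all members, replicate 5 fell inside the knockout range and outside that of the other wild-type libraries in 18 of 78 (23.1%), against 11.6% of all genes. It was the lower in 13 and the higher in 5. For all but Rps10 the other wild-type range overlapped with the knockout range, so that Rps10 alone (1.28% of members, against 0.419% of all genes) separated replicate 5 and the knockout from the rest. No member separated all 9 knockout from all 9 wild-type libraries, which 0.385% of all genes did. Among the rest the gaps were small: Rps13 was at 189.7 FPKM in replicate 5 and 135 to 164 in the other wild-type libraries, and Rps18 at 72.1 against 80.1 to 95.4. The labels give no reason for its place.

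**Figure D5:**
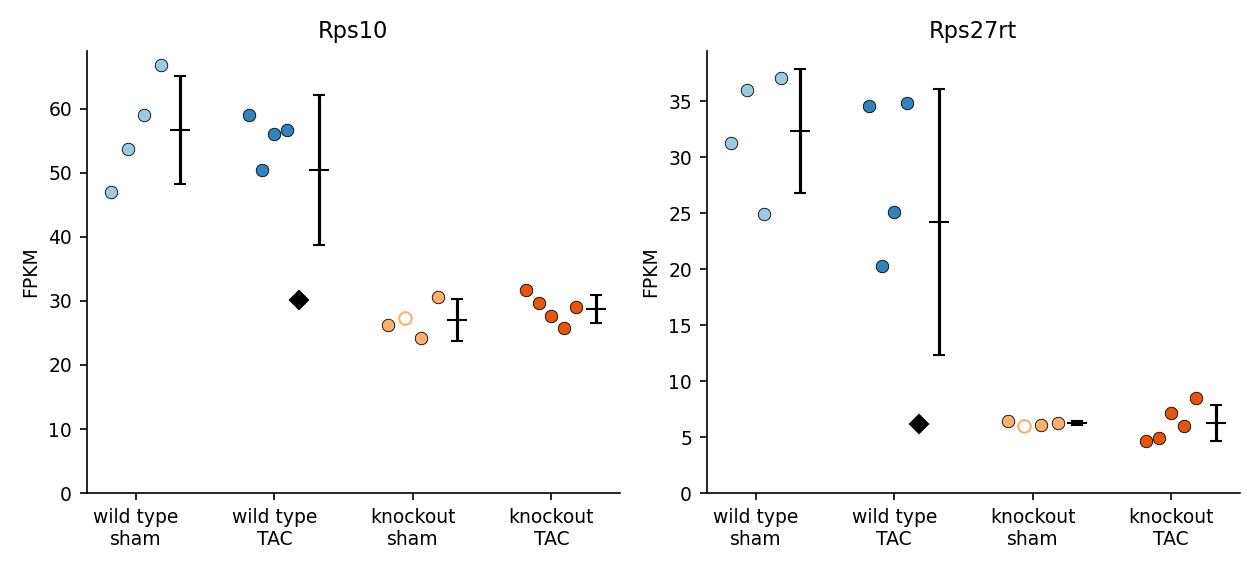
FPKM of Rps10 (left) and Rps27rt (right) by group; filled circles are libraries in the fits, the black diamond is wild-type TAC replicate 5, the open circle is knockout sham replicate 2, left out, and bars are mean ± SD. Replicate 5 lies at 30.1 FPKM of Rps10 and 6.21 FPKM of Rps27rt, among the knockout libraries for both genes.

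Among 8 tested ribosomal protein genes whose names fall outside the rule, Fau, which encodes Rps30 fused to a ubiquitin-like protein, was higher in the knockout in sham (0.38 ± 0.06; limma, Benjamini-Hochberg adjusted p = 0.0064) and after TAC (0.28 ± 0.05; adjusted p = 0.0038). Rpl22l1, a copy of Rpl22, fell with TAC in wild type (-0.39 ± 0.13; adjusted p = 0.041) and in the knockout (-0.43 ± 0.14; adjusted p = 0.025). Rpl22 itself rose in the knockout by 0.17 (adjusted p = 0.037) and changed by 0.07 in wild type. Rack1, a signalling scaffold on the small subunit, rose with TAC in the knockout by 0.17 (adjusted p = 0.036).

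The other genes of ribosome production and use were taken from lists. Of 59 ribosome biogenesis genes tested, TAC in wild type called 6 higher and 3 lower (15.3%, against 21.9% of all genes), and TAC in the knockout 15 higher and 4 lower (32.2%, against 38.8%). Rrp12, needed for export and maturation of both subunits, rose by 0.72 ± 0.10 in wild type (limma, Benjamini-Hochberg adjusted p = 0.00014) and 1.21 ± 0.11 in the knockout (adjusted p = 4.9e-07). Gnl3, nucleostemin, rose by 0.30 and 0.21, and Bysl, a factor of small subunit assembly, by 0.28 and 0.33. Polr1a, the largest subunit of RNA polymerase I, fell by 0.34 in wild type and by 0.43 in the knockout, and Dkc1, the pseudouridine synthase of rRNA, fell by 0.25 and by 0.49. The median log2 change of the list was 0.05 in wild type and 0.10 in the knockout, against -0.01 and 0.01 over all genes. Between genotypes 1 gene was called in sham (1.69%, against 1.26% of all genes). It was Polr1e, a subunit of RNA polymerase I (-0.43 ± 0.08, limma, Benjamini-Hochberg adjusted p = 0.010). After TAC 2 were called (3.39%, against 11.3% of all genes), Eif6 higher (0.29) and Rrp9 lower (-0.27). The limma interaction called 0, with 11 of 59 at an unadjusted p under 0.05. Over all genes there were 2245 of 11937, a similar share.

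Of 41 translation factors, TAC called 6 higher and 2 lower in wild type (19.5%, against 21.9% of all genes) and 12 higher and 6 lower in the knockout (43.9%, against 38.8%). Eif4a1, the helicase of the cap-binding complex, rose by 0.31 in wild type and 0.41 in the knockout, and Pabpc1, the poly(A)-binding protein, by 0.35 and 0.53. Eef1a1, which brings aminoacyl-tRNA to the ribosome and like the ribosomal protein mRNAs carries a pyrimidine tract, rose by 0.74 ± 0.11 in the knockout (limma, Benjamini-Hochberg adjusted p = 6.3e-05) and changed by 0.19 (adjusted p = 0.21) in wild type. The interaction of Eef1a1 was 0.55 ± 0.15 and missed the threshold (adjusted p = 0.077). After TAC Pabpc1 (0.27), Eef1a1 (0.45) and Eif3a (0.30) were higher in the knockout and Eif1ax lower (-0.17). These calls made up 9.76% of the list, against 11.3% of all genes. In sham limma called 0 of the list, with 4 at an unadjusted p under 0.05, against 1694 of all 11937 genes. The interaction called 0, with 5 at an unadjusted limma p under 0.05, against 2245 of all 11937 genes. Both shares were smaller than those over all genes.

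Of 24 regulators of ribosome production, TAC called 2 higher and 2 lower in wild type (16.7%, against 21.9% of all genes) and 4 higher and 5 lower in the knockout (37.5%, against 38.8%). Myc, which drives ribosome gene transcription, rose by 0.98 ± 0.22 (limma, Benjamini-Hochberg adjusted p = 0.0045) and 1.71 ± 0.24 (adjusted p = 3.1e-05), and Maf1, a repressor of RNA polymerase III, fell by 0.25 and by 0.39. Eif4ebp1, the repressor of cap-dependent translation that mTOR inactivates, was at 109, 108, 109.7 and 107 FPKM in wild-type sham and 116, 104, 102, 109 and 96.0 after TAC. In the knockout it was at 86.7, 107 and 102 FPKM in sham (99.4 left out) and 148, 115, 133, 142 and 143 after TAC. It was the one gene of this list called in the interaction (0.50 ± 0.11, limma, Benjamini-Hochberg adjusted p = 0.038). That is 4.17% of the list, against 0.93% of all genes. Between genotypes after TAC Eif4ebp1 was higher (0.36) and Larp4, an RNA-binding protein, lower (-0.23). These calls made up 8.33% of the list, against 11.3% of all genes. In sham limma called 0, with 2 of 24 at an unadjusted p under 0.05. Over all genes there were 1694 of 11937, a larger share.

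The mitochondrial ribosomal proteins, the nearest comparison set, had 5 members higher and 5 lower of 78 after TAC in wild type (12.8%, against 21.9% of all genes), and 1 higher and 38 lower in the knockout (50%, against 38.8%, with 17.7% of all genes lower). Their median log2 change in the knockout was -0.21, against 0.06 for the cytosolic members. In wild type it was 0.00, against 0.05. In sham the genotypes differed the other way: 71 of the 78 were above 0 (91.0%, against 47.5% of all genes). Their median difference in sham was 0.14, against 0.08 for the cytosolic members. There limma called 3 higher and 0 lower (3.85%, against 1.26% of all genes). At an unadjusted limma p under 0.05 there were 28 in either direction, against 1694 of all 11937 genes. The groups did not overlap in 22 that were higher and 0 that were lower, against 7.27% and 8.15% of all genes. Between genotypes after TAC limma called 4 lower and 0 higher (5.13%, against 11.3% of all genes). Among the cytosolic members it called 2 lower and 19 higher. At an unadjusted limma p under 0.05 there were 21 of the 78 mitochondrial members in either direction. Over all genes there were 3165 of 11937, a similar share. The interaction was below 0 for all 78 mitochondrial members, with a median of -0.20, while 55.3% of all genes were above 0. It called 2 of the mitochondrial members (2.56%, against 0.93% of all genes). The knockout sham libraries enter the TAC comparison in the knockout, the sham comparison and the interaction alike.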

How the data were processed

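Heart RNA of 18 libraries was analysed from 1 deposited table of FPKM per gene, with no counts. That the deposited values are FPKM was inferred from the values (the same holds for RPKM); the genome build was mm10, per the submitters' processing notes, and no source used here names the aligner or counting tool. Values were log2-transformed with a pseudocount of 1, so changes of low genes are understated. A gene was kept when 3 or more libraries had an FPKM of 1 or higher, and 4 group means were fitted to 17 libraries with limma 3.58.1 (R 4.3.3; trend and robust moderation, statmod 1.5.0), with Benjamini-Hochberg adjustment over all genes kept and a threshold of 0.05. The fit was tested on simulated data. The ratio of Rpl3l to Rpl3 was tested by exact permutation, and copies were found with BLAST+ 2.17.0. Gene names matched RefSeq for 81 of 81 members.

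Named genes were the Rpl3 pair, Rps10, the P stalk, Rpsa and members ending in l, up to 6 per direction and comparison by smallest adjusted p, the highest and lowest in level, those in which wild-type TAC replicate 5 sat with the knockout, and up to 4 per other list. The members and lists were chosen with earlier results of these data known. Alternatives were all 18 libraries, the replicate block, a pseudocount of 0.1, no filter, median-ratio scaling, only the groups compared, and each library left out. Some genes that the rule names are not reported here.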

Additional observations from a re-analysis of the deposited data

Results flagged for a closer look

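In groups of 4 or 5 libraries taken without regard to their values, chance flags about 1 in 20 for a library that stands off. Here 7 of 93 groups examined were flagged. The genes examined were named in part by their values in these same data, so the 7 cannot be judged against that rate. In wild-type sham, replicate 4 was highest for Rps12 (255 FPKM), Rpl4 (339.6) and Rpl17 (235), replicate 1 was lowest for Rps18 (80.1) and replicate 2 was highest for Rpl37 (104). In TAC, wild-type replicate 5 was highest for Rps13 (189.7) and knockout replicate 1 for Rpl36a (149.97). Rps13 was named because replicate 5 lay outside the other wild-type libraries, so its flag repeats that choice. The TAC response of Rpl3l differed between genotypes by -0.84 on the log2 scale in the interaction test of limma.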

How the results depend on the processing

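No direction called reversed under the alternatives run. The calls of Rpl3 and Rpl3l in both TAC comparisons and between genotypes after TAC held under all of them. Of the counts of members called, TAC in the knockout went from 16 to 8 with no filter on low values, 10 with median-ratio scaling and 9 with only the groups compared. Knockout against wild type in sham went from 3 to 6 with median-ratio scaling. The interaction went from 1 to 2 with all 18 libraries and with the replicate block, Rpl3 joining Rpl3l (0.48 and 0.52; limma, Benjamini-Hochberg adjusted p = 0.046 and 0.044). Leaving out 1 library at a time gave 3 to 7 members for TAC in wild type (3 without wild-type sham replicate 1 or 3 or wild-type TAC replicate 1). It gave 5 to 20 for TAC in the knockout (7 without knockout TAC replicate 1, 8 without knockout sham replicate 3, 10 without knockout TAC replicate 5). It gave 0 to 6 for sham (1 without knockout sham replicate 4, 5 without knockout TAC replicate 5, 6 without wild-type sham replicate 4 or wild-type TAC replicate 5), 12 to 26 after TAC and 0 to 2 for the interaction (2 without knockout TAC replicate 2). The ratio of Rpl3l to Rpl3 changed by -2.43 to -2.22 with TAC in the knockout when 1 library was left out, by -1.10 to -0.92 with TAC in wild type and by -1.39 to -1.17 between genotypes after TAC. Without any 1 of the knockout sham libraries the first had an exact permutation p of 0.048, the smallest 2 against 5 allow (adjusted 0.063). With the replicate block the ratio differed by -1.07, -2.55 and -1.28, with exact permutation p of 0.125, 0.25 and 0.0625, the smallest the pairs allow. Replicate numbers do not pair the libraries: 15 correlations of same-numbered deviations ran from -0.24 to 0.16, 2 over 0.1, and 4 of 15 were the best for their number. Depth is unknown, which limits what can be said of the members listed at 0. The causes of these changes were not tested.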
